A study of Mus musculus with 157 samples.

Results

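The mRNAs of 9 genes of the B cell receptor (BCR) and its first signalling steps were followed along sucrose gradients: Cd79a, Cd79b, Cr2, Cd22, Lyn, Syk, Btk, Blnk and Plcg2. They were picked out by gene name, as a set put together with earlier results of these data known, and were 9 of the 19600 genes in the table of counts. Between 222 and 20299 counts per gradient, summed over fractions, stood behind each summed level. Values of single fractions and of fraction classes rest on fewer. After etoposide, all 9 were lower on ribosomes in each gradient than in any gradient given LPS alone, as were 12.6% of all genes. Cd22 and Lyn fell most and Cd79b least. In the test of the summed level 6 of 9 passed, Btk only at the threshold, where 4.81% of all genes fell. Cd79a, Cd79b and Plcg2 did not pass. With the ATM inhibitor KU55933 added, none of the 9 passed this test against etoposide alone, where 0.455% of all genes did. In none of the 9 did the share lying in heavy polysomes pass the test, where at most 0.875% of all genes did in any comparison. With so few genes passing, 0 of 9 does not set these genes apart. The heavy polysome share is relative to other mRNAs and cannot show a loss of polysomes common to all of them.

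The BCR is a membrane immunoglobulin held by a pair of signalling chains, CD79A and CD79B, which carry the tyrosine motif called ITAM (immunoreceptor tyrosine-based activation motif). When the receptor is bound by antigen, the Src-family kinase LYN phosphorylates the ITAM tyrosines, SYK docks there and phosphorylates the adaptor BLNK, and BLNK brings the kinase BTK to phospholipase C gamma 2 (PLCG2), which sets off the calcium signal. CR2 (CD21) is a complement receptor and part of a co-receptor that lowers the threshold for this signal, and CD22 is a sialic acid-binding receptor that dampens it once LYN has phosphorylated it.

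Splenic B cells of C57BL/6Babr mice, purified with a Miltenyi kit, were cultured in 3 ways, with 4 gradients each. The LPS group received lipopolysaccharide at 10 µg/ml for 48 h. The LPS+ET group received in addition etoposide, a topoisomerase II poison that leaves DNA double-strand breaks, at 20 µM for 4 h. The LPS+ET+KU group had LPS for 47 h, then KU55933, an inhibitor of the DNA damage kinase ATM, at 10 µM for 1 h, and then the same etoposide exposure. By the methods etoposide was added after 48 h of LPS, so treated cells may have been longer in culture than LPS cells. Such a difference in time cannot be told apart from treatment. No group had KU55933 without etoposide. All cells were given cycloheximide at 100 µg/ml for 3 min ahead of lysis, and cytoplasmic extract was spread over sucrose, of which fractions 4 to 7 were monosomes, 8 to 10 light polysomes and 11 to 16 heavy polysomes. Each of 4 library pools, LUL15 to LUL18, held 1 gradient of each treatment, and values listed below follow that order.

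Between 14724 and 4170688 counts (median 811932) were in each of 156 libraries, 1 per gradient and fraction, and 6404957 to 21449781 in each of the 12 gradients. The LPS+ET gradient of pool LUL16 stood apart, with 30.4% of its counts in heavy polysomes against 60.5% to 68.2% in the other LPS+ET gradients, so results are also given without it or without its pool. The LPS+ET+KU gradients had 28.4% to 34.03% of their counts in monosomes against 13.7% to 17.6% in LPS, so that fractions carry different weight in the summed levels of these treatments. Calls with equal weight per fraction are given below, with fold changes for Cd79b, Syk and Btk only. A library from fraction 17 of 1 LPS gradient held 777 counts, with 0 to 3 of each of the 9 genes, and entered no comparison. The B cell markers (7 of 7 with values, Igkc highest) summed to 39790 to 140000 CPM (counts scaled to 1 common library total, as usual for this unit) in a gradient. T cell markers (8 of 9) summed to 131.5 to 160.6 CPM in LPS, 111.8 to 301.6 in LPS+ET and 84.9 to 384.1 in LPS+ET+KU, nearly all of it Lck, while the mean level of Cd3e, Cd3d or Cd3g was at most 1.13 CPM in any treatment. Myeloid markers (9 of 9, led by Fcer1g) summed to 63.7 to 151.3, 108.5 to 244.5 and 102.6 to 194.3 CPM in the same order, while plasma cell markers (5 of 6) summed to 388.0 to 641.3, 395.3 to 1238 and 198.8 to 687.4. Erythroid markers (4 of 6, nearly all Hbb-b2) summed to 23.2 to 176.9 CPM in a gradient, platelet markers (2 of 4) to 1.61 to 6.90 and NK cell markers (2 of 5) to at most 1.77. The part of these cells in the results was not tested.

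The mouse ITAM coding stretches of the signalling chains are shown because they are what makes these members the receptor's signal source, with the tyrosine codons and the leucine or isoleucine codons that follow them in capitals (GENCODE M21, assembly GRCm38).
Cd79a: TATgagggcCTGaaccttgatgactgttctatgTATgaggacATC
Cd79b: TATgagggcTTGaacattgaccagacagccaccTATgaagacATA
They span codons 182 to 196 of Cd79a and 255 to 269 of Cd79b. Both have 10 codons between the tyrosines, and 31 of 45 bases are identical (68.9%).

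The 250 bases ahead of the RefSeq gene start were searched on both strands for letters that B cell transcription factors are known to bind, since the 9 genes moved in 1 direction. Of the 9 genes, 7 had a promoter in the RefSeq table of GRCm38.p6, while Cd79b and Lyn were not in it. The E-box CAGGTG stood ahead of 6 of them (Blnk, Cd22, Cd79a, Cr2, Plcg2 and Syk) and of 17.2% of all 32851 promoters. The PU.1-type GAGGAA stood ahead of Cd79a and Syk (23.3% of all promoters), the EBF-type CCCNNGGG ahead of Cd22 (11.8%) and the octamer ATGCAAAT ahead of Blnk (1.6%). The last pair are printed as windows of 30 bases with the motif in capitals.
Cd22 (chr7:30879058-30879087, minus strand): tcctgcaagatCCCTGGGGactcacacaga
Blnk (chr19:40994333-40994362, minus strand): tactggaagggATTTGCATgcccaataagg
The Cd22 motif began 48 bases ahead of the RefSeq start, in no annotated exon. The Blnk motif, read in reverse, began 130 bases ahead of the start and overlapped an exon of GENCODE M21. A match is a description of letters and shows no binding.

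The libraries tag the 3′ end of each mRNA, about 1 tag per molecule, so CPM can be set side by side between genes without a correction for length. Of the 14 counted poly(A) sites of the 9 genes, 12 lay in an exon outside the coding sequence, and the single Btk site and 1 Cr2 site lay just past the annotated gene end. Cd79a (chr7:24897381-24902197, plus strand) was counted at 2 sites, with 74.0% of its counts at the last base of the gene and the rest at a site 327 bases upstream. Syk (chr13:52583173-52648792, plus) was counted at 2 sites too, with 69.1% and 30.9% of the counts, and Cr2 (chr1:195136811-195176716, minus) at 4 sites, with 53.3%, 22.4%, 20.1% and 4.25%. The other members had 1 site each: Cd79b (chr11:106311341-106314762, minus), Cd22 (chr7:30865402-30880342, minus), Btk (chrX:134542336-134583570, minus), Blnk (chr19:40928927-40994535, minus), Lyn (chr4:3678115-3813122, plus) and Plcg2 (chr8:117498291-117635142, plus). The Lyn site stood 569 bases ahead of the nearest annotated transcript end and 22079 bases ahead of the gene end, so Lyn transcripts that end further on were not counted there.

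In LPS cells, the summed level over fractions 4 to 16 (ribosome-associated mRNA, in CPM scaled with edgeR's TMM factors) put all 9 genes among the better expressed, above 82.9% (Cr2) to 98.7% (Cd79b) of the 12755 genes tested, whose median was 14.1 CPM. Cd79b (839 ± 139 CPM, SD, n = 4) and Blnk (809 ± 122) were highest and overlapped each other. Cd22 (434 ± 22.9), Plcg2 (326 ± 16.1) and Btk (220 ± 39.4) followed without overlap between neighbours. Lyn (150 ± 6.57) and Syk (145 ± 16.6) overlapped, as did the lowest pair, Cd79a (92.1 ± 6.22) and Cr2 (77.5 ± 20.1). The signalling chains thus stood at opposite ends of the order, with every LPS value of Cd79b above every value of Cd79a.

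**Figure D1:**
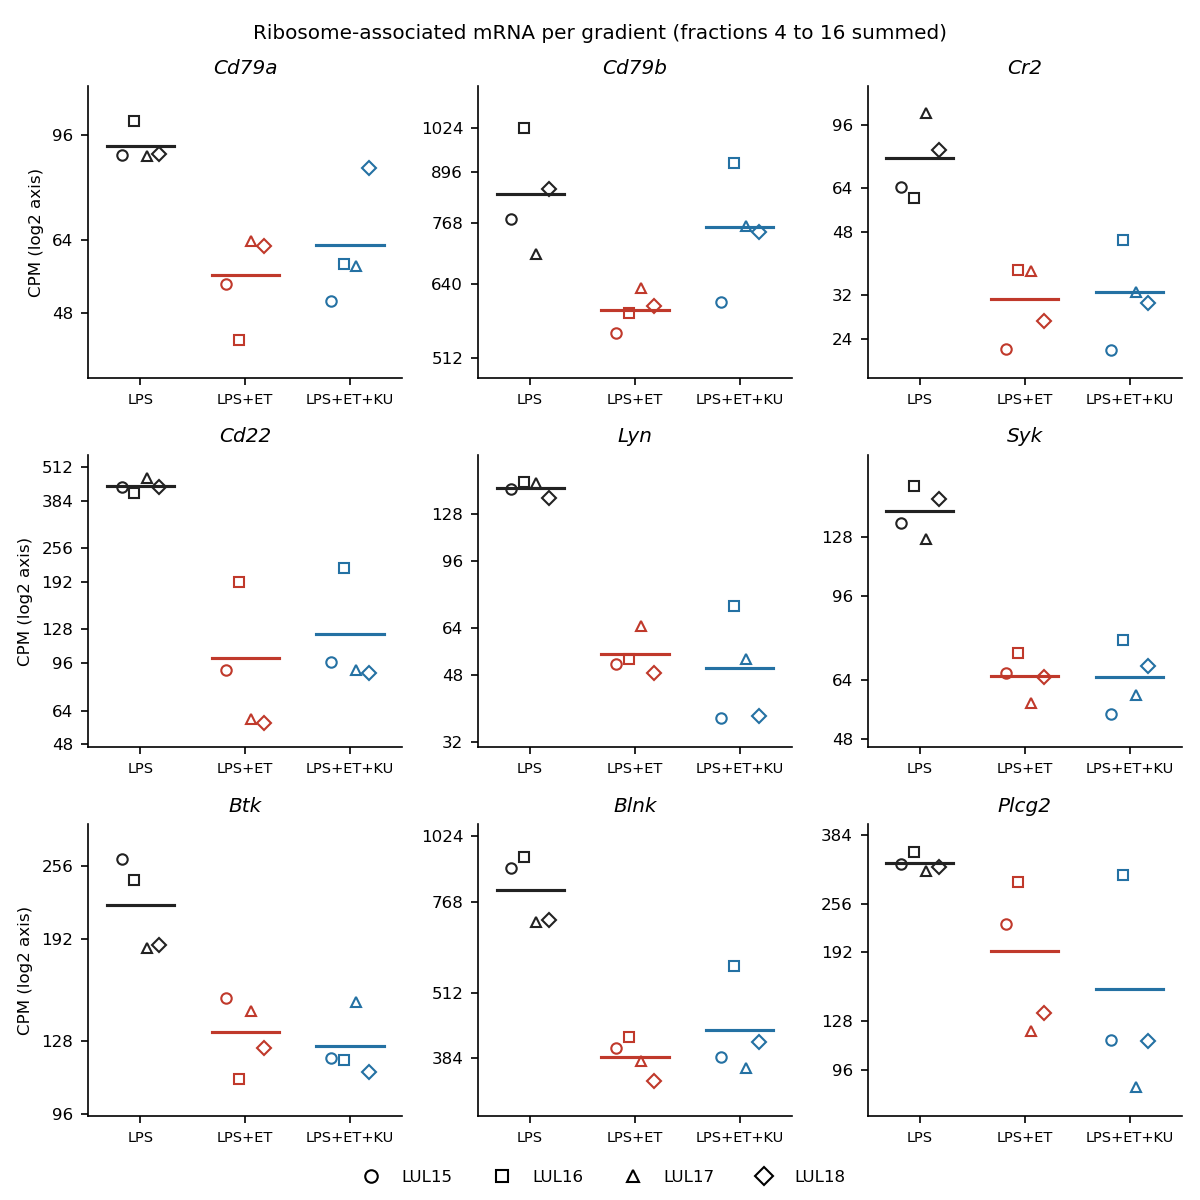
Ribosome-associated mRNA of each gene in CPM on a log2 axis (y) by treatment (x), with 1 point per gradient, a marker shape per pool and a bar at the mean of 4 gradients. All LPS+ET points lie below all LPS points for each of the 9 genes, and the pool LUL16 squares of Cd22 and Plcg2 lie highest among the treated gradients.

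The first comparison, LPS+ET against LPS, sets the levels of these mRNAs on ribosomes after etoposide against those without it. All 4 LPS+ET gradients lay below all 4 LPS gradients for 9 of 9 genes, against 12.6% of all genes tested. By edgeR's quasi-likelihood test with Benjamini-Hochberg adjustment over all genes, called at an adjusted p under 0.01, 6 of 9 fell (Cd22, Lyn, Cr2, Syk, Blnk and Btk), against 4.81% of all genes. With the library pool as a replicate block 8 of 9 fell, all but Cd79b, against 12.8% of all genes. The median log2 fold change was -1.06 over the 9 genes and 0.03 over all genes. Shares and medians over all genes, here and below, are not matched for expression level, and the 9 genes are among the better expressed. The study reports that highly expressed genes were reduced in abundance and on ribosomes after etoposide. The part of expression level in these falls was not tested. In bulk libraries, fewer cells of a type and less RNA per cell cannot be told apart, and CPM is a share of each library, not an amount of mRNA.

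Of the signalling chains, Cd79a stood at 89.1, 101.4, 88.6 and 89.3 CPM in LPS and at 53.9, 43.2, 63.7 and 62.4 in LPS+ET. The groups were well apart, and the log2 fold change of -0.72 (SE 0.19) had an adjusted p of 0.0138, which became 0.0022 with the replicate block. Cd79b, its partner, stood at 778, 1025, 700.1 and 853 CPM in LPS and at 551, 586, 633 and 598 in LPS+ET. These groups lay close together, and neither the log2 fold change of -0.50 (SE 0.18, adjusted p = 0.055) nor the blocked -0.49 (adjusted p = 0.0135) passed.

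The co-receptor gene Cr2 stood at 64.2, 59.9, 104.2 and 81.5 CPM in LPS and fell to 22.5, 37.6, 37.4 and 27.1 in LPS+ET (log2 fold change -1.32, SE 0.26, adjusted p = 0.0023). Its call ended without LPS+ET replicate LUL18 (adjusted p = 0.0108). The inhibitory receptor Cd22 had the largest fall of the 9. It stood at 433, 408, 464 and 430 CPM in LPS and at 90.7, 191.9, 59.6 and 57.7 in LPS+ET, a log2 fold change of -2.12 (SE 0.40, adjusted p = 0.0017). The pool LUL16 value was more than the others of LPS+ET, and within pools the log2 ratio was -1.09 in LUL16 and -2.25, -2.96 and -2.90 in LUL15, LUL17 and LUL18.

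Among the kinases, Lyn stood at 149, 155, 154 and 141 CPM in LPS and at 51.5, 53.1, 64.9 and 48.7 in LPS+ET. Both groups were tight, and Lyn fell by 1.46 on the log2 scale (SE 0.21, adjusted p = 0.0003). Syk stood at 137, 163, 126 and 154 CPM in LPS and at 66.2, 72.8, 57.4 and 65.0 in LPS+ET (log2 fold change -1.15, SE 0.16, adjusted p = 0.00024). Its log2 ratios within pools spanned only -1.24 to -1.05, the narrowest of the 9 genes. Btk stood at 263, 242, 185 and 188 CPM in LPS and at 151.7, 110.3, 144.2 and 124.4 in LPS+ET. The change of -0.73 (SE 0.18, adjusted p = 0.0099) was at the threshold and ended whichever of the 8 gradients was left out (adjusted p of 0.0102 to 0.0349), while with the replicate block it had an adjusted p of 0.0017.

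The adaptor gene Blnk stood at 892, 936, 702 and 708 CPM in LPS and at 402, 422, 379 and 347 in LPS+ET, and fell by 1.06 on the log2 scale (SE 0.19, adjusted p = 0.0011). Plcg2, the phospholipase at the end of this chain, stood at 325, 348, 312 and 317 CPM in LPS and at 228, 291, 120.3 and 134.5 in LPS+ET. The LPS values were close together and the LPS+ET values wide apart, and the log2 fold change of -0.75 (SE 0.37) had an adjusted p of 0.173. With the replicate block it was -0.87 (adjusted p = 0.0072). Without pool LUL16 in any treatment, an alternative chosen after seeing the data, 5 of 9 genes fell (Cd22, Syk, Blnk, Lyn and Cr2), Btk had an adjusted p of 0.0345 and Plcg2 of 0.0102. When the fractions of a gradient were given equal weight, 4 of 9 passed (Cd22, Syk, Blnk and Lyn). For left-out gradients or pools, equal weight and DESeq2, here and below, no share over all genes is given. Their counts show only how the calls moved.

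LPS+ET+KU cells were compared with the same LPS gradients, so the comparison shares its controls with the first. All 4 LPS+ET+KU gradients lay below all LPS gradients for 8 of 9 genes (12.0% of all genes), with Cd79b the exception. Again 6 of 9 fell (the same 6), against 4.42% of all genes, and 8 of 9 with the replicate block against 13.3% of all genes. The median log2 fold change was -1.07 over the 9 genes and 0.09 over all genes.

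Cd79a stood at 50.3, 58.2, 57.6 and 84.6 CPM in LPS+ET+KU, of which the pool LUL18 value came near the LPS range (log2 fold change -0.55, SE 0.19, adjusted p = 0.048, or -0.58 and 0.0091 with the replicate block). Cd79b stood at 606, 922, 761 and 749 CPM and was spread over the LPS range (log2 fold change -0.14, 95% interval -0.52 to 0.23, adjusted p = 0.58). Cr2 stood at 22.3, 45.5, 32.6 and 30.3 CPM and fell by 1.24 on the log2 scale (SE 0.26, adjusted p = 0.0041). Cd22 stood at 96.7, 216.1, 90.7 and 88.2 CPM and fell by 1.82 (SE 0.39, adjusted p = 0.0053), with the LUL16 value again apart from the rest.

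Lyn stood at 36.9, 73.0, 52.9 and 37.5 CPM in LPS+ET+KU and fell by 1.58 on the log2 scale (SE 0.21, adjusted p = 0.00028). Syk stood at 54.2, 77.7, 59.6 and 68.6 CPM and fell by 1.16 (SE 0.16, adjusted p = 0.00035). Btk stood at 119.7, 119.0, 149.7 and 113.2 CPM and fell by 0.81 (SE 0.18, adjusted p = 0.0061). The values of these 3 kinase genes were close to those of LPS+ET. Blnk stood at 386, 578, 369 and 412 CPM and fell by 0.89 (SE 0.18, adjusted p = 0.0042). Plcg2 stood at 114.4, 304, 86.6 and 113.7 CPM, of which only the LUL16 gradient was near the LPS values. Its log2 fold change of -1.07 (SE 0.37, adjusted p = 0.054) passed with the replicate block (-1.27, adjusted p = 0.00066) and without LPS+ET+KU replicate LUL16 (adjusted p = 0.0015).

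Some of these calls rested on single gradients. The call on Cd22 ended without any 1 of the 8 gradients other than LPS+ET+KU LUL16 (adjusted p up to 0.0211). Those on Blnk and Btk ended without LPS LUL15 or LUL16, LPS+ET+KU LUL15 or LUL18, or, for Blnk, LPS+ET+KU LUL17 and, for Btk, LPS+ET+KU LUL16 (up to 0.0183 and 0.0248), and that on Cr2 without LPS LUL17 or LUL18 or LPS+ET+KU LUL15, LUL17 or LUL18 (up to 0.0157). Syk and Lyn kept their calls in every such fit. Without pool LUL16 in any treatment 6 of 9 fell, with Plcg2 among them and Btk not. With equal weight per fraction Lyn alone passed.

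LPS+ET+KU was then set against LPS+ET, the comparison that asks what KU55933 changed in cells given etoposide. Effects of KU55933 that do not depend on etoposide cannot be told apart here, as no group had it alone with LPS. None of the 9 genes passed edgeR's test, against 0.455% of all genes. None had an unadjusted p under 0.05, against 2031 of the 12755 genes tested, so 0 of 9 does not set these genes apart. With the replicate block 0 of 9 passed, against 6.36% of all genes, and 1 had an unadjusted p under 0.05 (Cd79b). DESeq2 likewise called 0 of 9, with 1 at an unadjusted p under 0.05. For other counts at an unadjusted p, here and below, no share over all genes is given. They are therefore not a result about the 9 genes. The values of all 9 genes overlapped between these groups.

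The intervals of the fit on summed counts were as follows. Cd79b had the largest positive log2 fold change, 0.36 (95% interval -0.02 to 0.74), and was higher in LPS+ET+KU in 4 of 4 pools. Cd22 (0.30, interval -0.52 to 1.12) was also higher in 4 of 4 pools. Syk (-0.01, interval -0.35 to 0.34), Btk (-0.08, interval -0.46 to 0.30) and Lyn (-0.12, interval -0.58 to 0.33) were near 0. With equal weight per fraction, however, Syk was at 0.38 (limma, adjusted p = 0.357), beyond that upper bound, and Btk at 0.25. The mean of Syk was higher in LPS+ET+KU in 13 of 13 fractions (log2 ratios of 0.26 to 0.77). These fractions come from the same gradients and are not independent. The gradients of the treatments overlapped in all of them but 1, fraction 10. How many of all genes show such a pattern was not counted. Cd79a (0.17, interval -0.24 to 0.57), Blnk (0.17, interval -0.22 to 0.57) and Cr2 (0.08, interval -0.47 to 0.62) were each higher in 2 of 4 pools. Plcg2 had the widest interval bar Cd22, at -0.32 (-1.12 to 0.48). For Cd79b the upper bound exceeded the size of its fall after etoposide (-0.50).

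**Figure D2:**
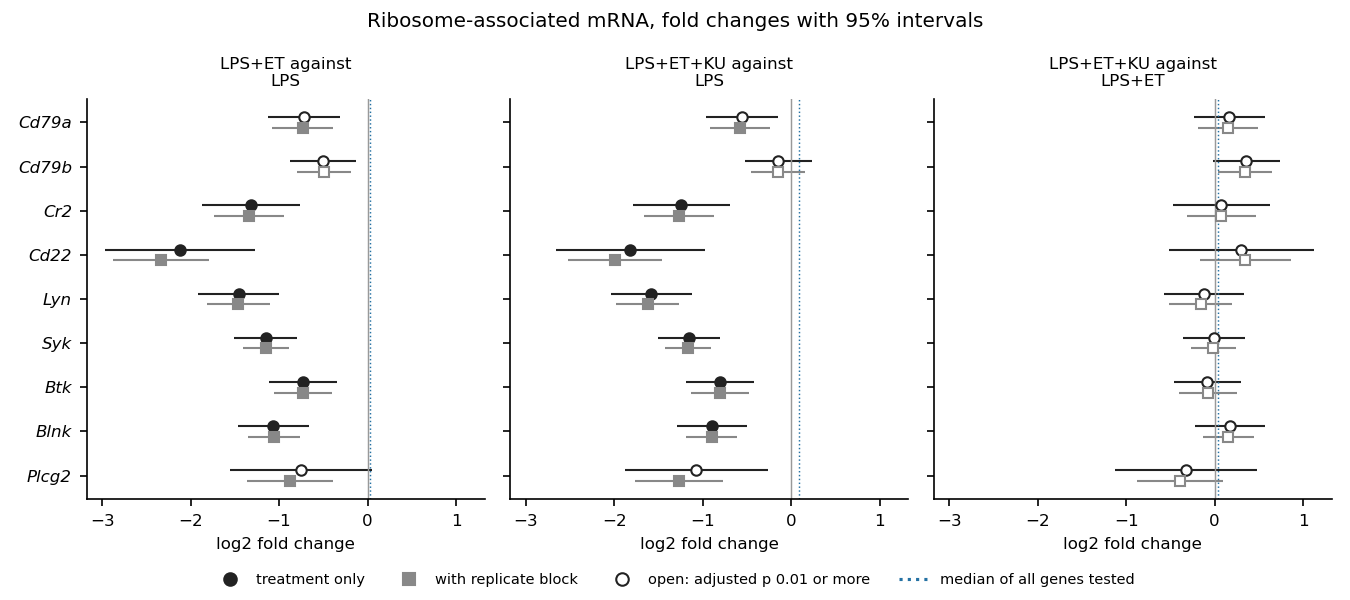
Log2 fold changes (x) of ribosome-associated mRNA for each gene (y) with 95% intervals, from the fit with treatment alone (circles) and with the replicate block (squares). Filled marks have an adjusted p under 0.01, the dotted line is the median of all genes tested, and the 9 genes lie left of it in both comparisons with LPS and around it in LPS+ET+KU against LPS+ET.

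The fall was next followed in the monosome, light and heavy classes, each summed and fitted on its own. In monosomes of LPS+ET against LPS, 5 of 9 genes fell (3.08% of all genes), namely Cd22 (log2 fold change -1.93), Cr2 (-1.71), Syk (-1.17), Cd79a (-1.13) and Lyn (-0.92), and 7 with the replicate block (10.7%). In light polysomes 4 of 9 fell (4.07% of all genes), Cd22 (-2.15), Lyn (-1.50), Syk (-1.23) and Cd79a, and 7 with the block (12.1%). In heavy polysomes 2 of 9 fell (3.55% of all genes), Lyn (-1.42) and Blnk (-1.37), and 6 with the block (10.1%), while Cd22 had a change of similar size to the other classes (-1.89) with an adjusted p of 0.025. Lyn lost its heavy call without LPS+ET replicate LUL18 (adjusted p = 0.0122). Cr2 was low in monosomes of LPS+ET (4.80, 13.3, 9.85 and 12.1 CPM), so few counts stood behind its call there.

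The heavy class was where pool LUL16 weighed most. Cd22 in heavy polysomes of LPS+ET stood at 110.7, 317, 61.2 and 52.3 CPM against 482, 476, 547 and 475 in LPS, and Syk stood at 93.4, 157.8, 74.5 and 81.3 against 176, 234, 181 and 203. Without LPS+ET replicate LUL16, Cd22 (adjusted p = 0.00093), Syk (0.0016) and Cr2 (0.0058) passed, which made 5 of 9. Plcg2 stood at 98.4 ± 16.9 CPM in LPS monosomes and 103.3 ± 48.2 in LPS+ET monosomes (log2 fold change 0.07, interval -0.61 to 0.76), of which the LUL16 value of 171.0 was the highest, and without pool LUL16 the change was -0.20. In heavy polysomes it stood at 475 ± 28.1 and 289 ± 165 CPM (-0.72, interval -1.69 to 0.25), and these intervals overlap widely. The Cd79a monosome call ended without LPS LUL15 or LUL16 or any LPS+ET gradient but LUL16 (adjusted p up to 0.017), and its light polysome call without any gradient but LPS LUL18 (up to 0.0296).

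In LPS+ET+KU against LPS, 4 of 9 fell in monosomes (2.26% of all genes), Cd22 (-2.01), Cr2 (-1.32), Syk (-0.99) and Lyn (-0.93), and 5 with the replicate block (10.1%). Light polysomes gave 3 of 9 (3.24%), Cd22 (-1.73), Lyn (-1.53) and Syk (-0.93), and 6 with the block (12.2%). Heavy polysomes gave 1 of 9 (3.01%), Lyn (-1.59), and 7 with the block (10.3%), with Blnk, Btk and Syk at adjusted p of 0.011, 0.0132 and 0.0138 without it. In monosomes, the call on Syk ended without LPS LUL15, LUL16 or LUL18 or LPS+ET+KU LUL17 or LUL18 (adjusted p up to 0.0149), that on Cr2 without any gradient but LPS+ET+KU LUL16 (up to 0.0197) and that on Lyn without LPS+ET+KU LUL18 (0.0105). In light polysomes, the call on Syk ended without any gradient but LPS LUL17 or LPS+ET+KU LUL16 (up to 0.0262). Between LPS+ET+KU and LPS+ET, edgeR called 0 of 9 in each class (0.213%, 0.292% and 0.572% of all genes in monosomes, light and heavy polysomes), with 2, 0 and 0 members at an unadjusted p under 0.05, and DESeq2 called 0 in each. With the replicate block Cd79b alone was higher in monosomes (log2 fold change 0.45, adjusted p = 0.0078), where 2.5% of all genes were higher and 5.62% passed in either direction. Its monosome level was 396, 549, 440 and 381 CPM in LPS+ET and 538, 643, 623 and 594 in LPS+ET+KU, higher in each pool, with the groups overlapping through the LUL16 gradient of LPS+ET.

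Along the single fractions, 8 of the 9 mRNAs had 1 main peak in LPS cells, at 3 depths. Cd79a, Blnk and Cd79b peaked at the light end of the heavy polysomes. Cd79a peaked in fraction 11 at 188.6 ± 21.99 CPM, Blnk in fraction 11 at 1296 ± 239 and Cd79b in fraction 12 at 1247 ± 310. Lyn and Btk peaked in fraction 13, at 251 ± 51.1 and 398 ± 103 CPM. Syk (fraction 14, 339 ± 56.4 CPM), Plcg2 (fraction 15, 1309 ± 307) and Cr2 (fraction 15, 242 ± 77.4) peaked deepest, and Plcg2 stood at 191.6 CPM or less in every fraction up to 12.

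Cd22 had peaks in both parts of the gradient. Its LPS mean rose to 537 CPM in fraction 6, among the monosomes, fell to 260 CPM in fraction 11 and rose again to 795 ± 79.7 CPM in fraction 14. In LPS+ET the mean was between 59.7 and 185.3 CPM in every fraction, with the highest value in fraction 15, and in LPS+ET+KU between 75.6 and 318 CPM. Both parts of the profile were therefore lower after etoposide.

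**Figure D3:**
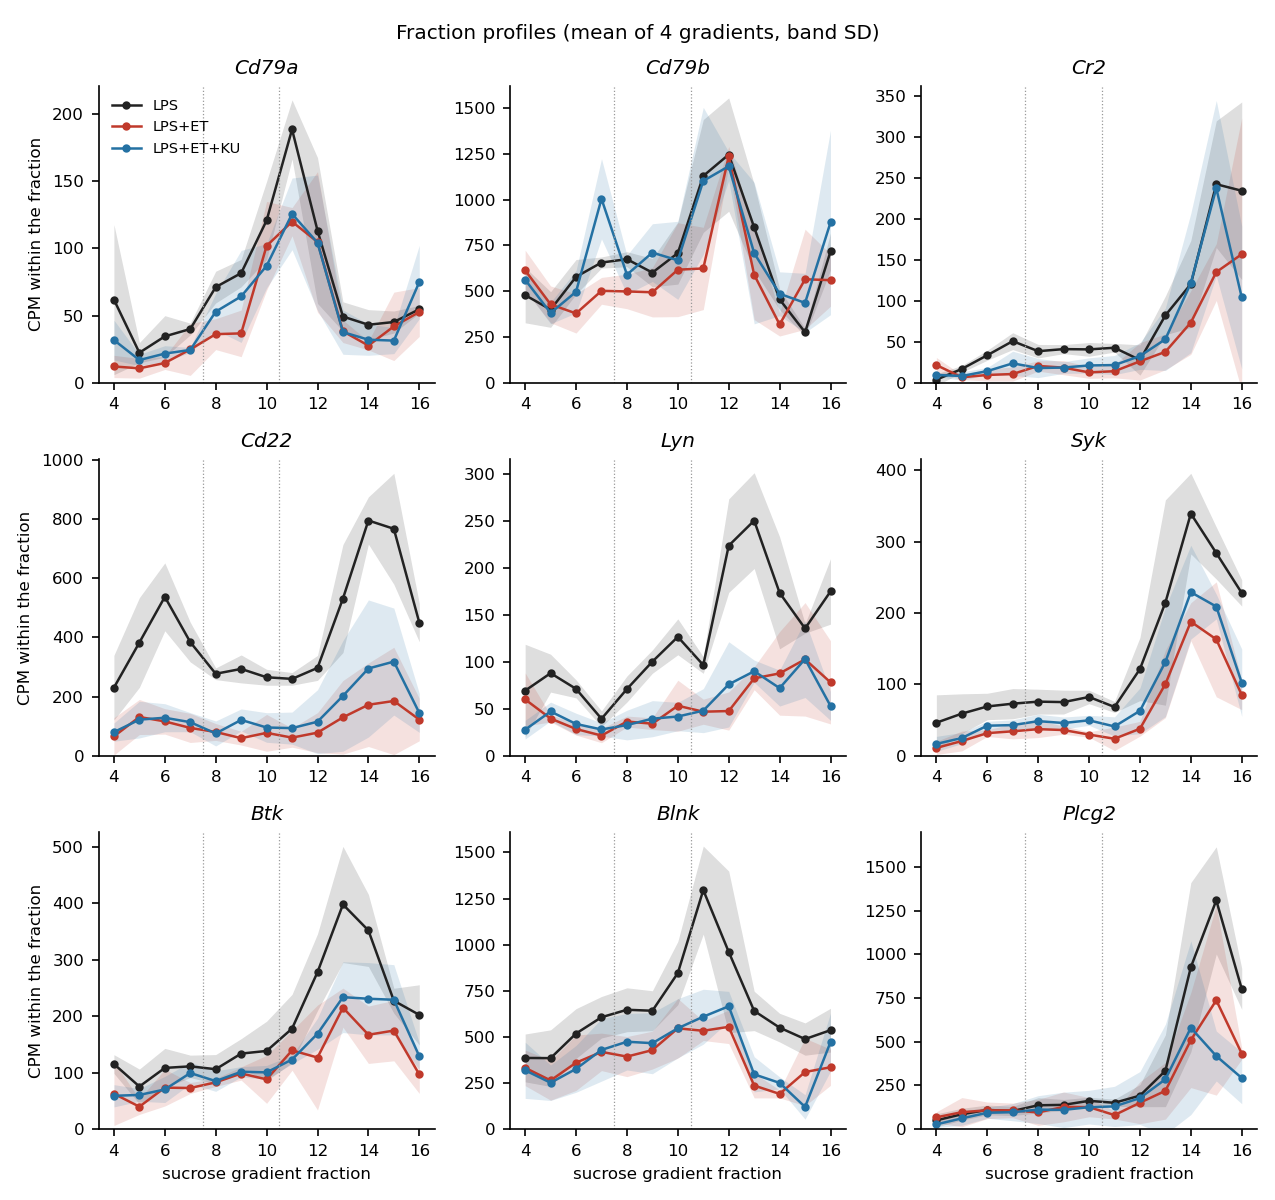
CPM within each fraction library (y) along gradient fractions 4 to 16 (x) for the 9 genes, as the mean of 4 gradients (line) with its SD (band) in each treatment. Dotted lines part monosomes, light and heavy polysomes. Cd22 and Lyn of the treated gradients run low along most of the profile, while the Cd79b curves meet near 1247 CPM in fraction 12.

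After etoposide the peak stayed in the same fraction for Cd79a (fraction 11, 119.9 ± 10.54 CPM), Cd79b (fraction 12, 1237 ± 54.1), Syk (fraction 14, 188 ± 26.6), Btk (fraction 13, 215 ± 34.6) and Plcg2 (fraction 15, 737 ± 543). The Cd79b peak was nearly as high as in LPS, and its mean was lower in fraction 11 (624 against 1130 CPM) and higher in fraction 15 (565 against 275). The Blnk peak lost most of its height, with 533 CPM in fraction 11 and 555 ± 90.7 in fraction 12. Lyn had its highest mean in fraction 15 (102.9 ± 60.5 CPM) and went from 224 to 47.8 CPM in fraction 12.

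In LPS+ET+KU the peaks of Cd79a (125.7 ± 26.7 CPM), Cd79b (1183 ± 78.1), Syk (229 ± 65.7), Btk (234 ± 62.7) and Cr2 (238 ± 107) were in the same fractions as in LPS, and that of Plcg2 was 1 fraction earlier (fraction 14, 580 ± 497). The mean of Cr2 in fraction 15 was thus close to the 242 CPM of LPS although its summed level was lower. Cd79b had a further peak among the monosomes, in fraction 7, at 1005 ± 219 CPM against 657 ± 30.4 in LPS and 502 ± 73.3 in LPS+ET. These values by fraction are descriptions, and the tests of the whole profile follow.

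A model of all fractions (edgeR, with fraction, treatment and their interaction against fraction alone) called 9 of 9 genes after etoposide against LPS (30.8% of all genes), 7 of 9 in LPS+ET+KU against LPS (32.7%), without Cd79b and Plcg2, and 1 of 9 in LPS+ET+KU against LPS+ET (7.98%), which was Cd79b (adjusted p = 0.0047). This test takes in a change of level as well as of shape. It has no term for the gradient, so it treats the 13 fraction libraries of 1 gradient, which come from the same cells, as independent, and its p-values for a change of level are too small. On sums per gradient 6, 6 and 0 of 9 passed. Tested for the interaction alone, which asks for a change of shape, 0 of 9 genes passed in the 3 comparisons (1.4%, 3.22% and 0.984% of all genes), with 2, 1 and 1 members at an unadjusted p under 0.05. With a term for each gradient, the replicate block of this model, Cd79b passed in LPS+ET against LPS (1 of 9, adjusted p = 0.00093, 5.7% of all genes), Blnk in LPS+ET+KU against LPS (1 of 9, 0.0087, 10.9%) and 0 of 9 in LPS+ET+KU against LPS+ET (3.65%), where 1 had an unadjusted p under 0.05. The level-and-shape call on Plcg2 in the first comparison ended without any gradient but LPS LUL17 or LPS+ET LUL16 (adjusted p up to 0.112). That on Cd79a in the second ended without LPS LUL15, LUL17 or LUL18 or LPS+ET+KU LUL15 (up to 0.0349), and that on Cd79b in the third without any LPS+ET gradient but LUL16 or without LPS+ET+KU LUL16 or LUL18 (up to 0.108).

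The heavy polysome share, the part of a gene's CPM summed over fractions that lay in fractions 11 to 16, summarizes the profile in 1 number per gradient. Each fraction library has the same total in CPM, so the share is relative to other mRNAs. The study reports that etoposide lowered polysome assembly as a whole, and this share cannot show such a loss. In LPS it was lowest for Blnk (52.9% ± 3.64), Cd79a (53.3% ± 4.22) and Cd79b (53.3% ± 2.43), below the median of all genes of 55.2%. Cd22 (56.8% ± 2.13), Lyn (65.06% ± 1.595) and Btk (67.6% ± 2.07) followed, and Syk (72.5% ± 3.12), Cr2 (76.6% ± 4.61) and Plcg2 (82.6% ± 0.32) were highest.

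By limma on the logit of the share, 0 of 9 genes changed in LPS+ET against LPS (0.312% of all genes), 0 of 9 in LPS+ET+KU against LPS (0.875%) and 0 of 9 between the etoposide groups (0.0%), with 1, 2 and 0 members at an unadjusted p under 0.05. Plcg2 came closest in both comparisons with LPS. Its share was 82.3, 82.6, 82.4 and 83.0% in LPS, 81.2, 66.1, 76.3 and 76.9% in LPS+ET and 71.6, 75.8, 79.4 and 73.6% in LPS+ET+KU. Every treated gradient lay below every LPS gradient, with logit differences of -0.43 (SE 0.16, adjusted p = 0.159) and -0.45 (SE 0.16, adjusted p = 0.131). How many of all genes separate in this way was not counted. On counts as deposited, the Plcg2 shares overlapped. They ran from 76.8% to 87.29% in LPS, 50.0% to 84.55% in LPS+ET and 61.48% to 79.76% in LPS+ET+KU. Cd79a had the largest rise in mean share after etoposide, to 62.8% ± 10.6 (logit difference 0.41, SE 0.24, adjusted p = 0.346), with the LUL16 gradient of LPS+ET (49.9%) within the LPS range of 47.6% to 57.4%. The 4 gradients of Cd22 in LPS+ET spread widely, at 66.5, 52.9, 49.7 and 41.3%, on both sides of the LPS range of 54.8% to 59.1%.

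**Figure D4:**
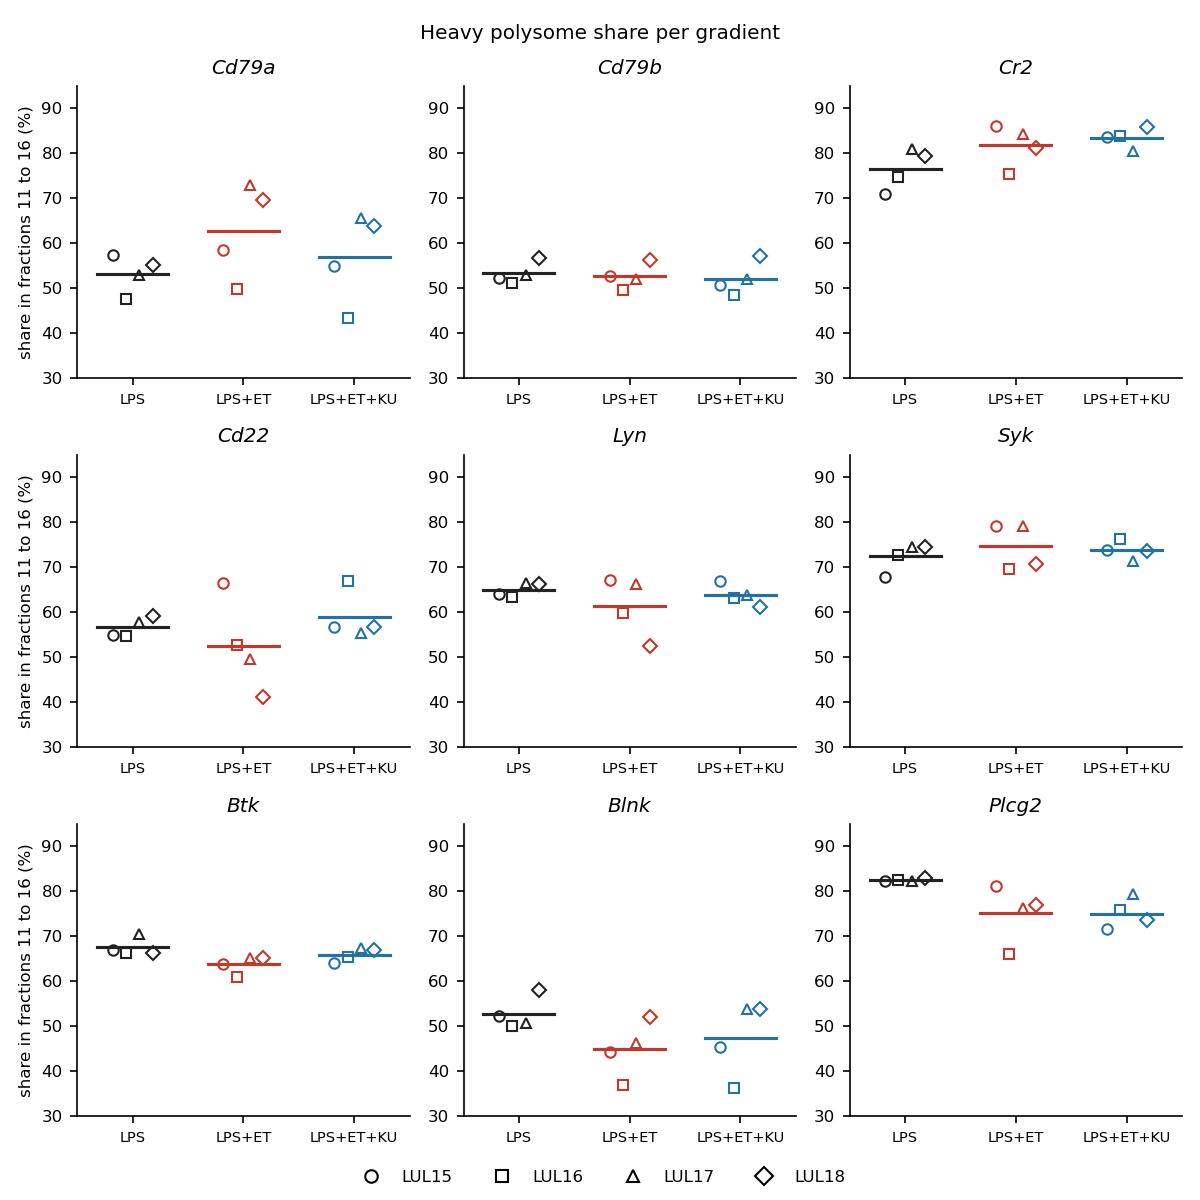
Heavy polysome share in percent (y) by treatment (x), with 1 point per gradient and a bar at the mean. The axis starts at 30%. Plcg2 in LPS is tight at 82.3% to 83.0% and lower in all treated gradients, whereas the treatments overlap for Cd79b, Syk and Lyn.

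The order of the 9 genes along the gradient followed the length of their coding sequences. The mean fraction (each fraction weighted by its CPM) in LPS was 10.3 for Cd79b (864 coding bases), 10.4 for Cd79a (660) and for Blnk (1371), against a median of 10.7 over 8000 genes. It was 10.9 for Cd22 (2604), 11.4 for Lyn (1536), 11.5 for Btk (1977) and 12.2 for Syk (1887), and 13.0 for Cr2 (4224) and 13.3 for Plcg2 (3795). Spearman's rho between coding length and mean fraction was 0.85 over the 9 genes and 0.559 over 7585 genes in LPS, 0.667 and 0.518 in LPS+ET, and 0.817 and 0.567 in LPS+ET+KU. These are descriptions across genes that share the same libraries. Set against genes whose coding length was within 0.1 log2 units of its own, Syk lay deeper than 88.8% of 526, Plcg2 deeper than 88.4% of 189 and Cr2 deeper than 85.3% of 136, while Cd22 lay deeper than only 30.4% of 362.

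**Figure D5:**
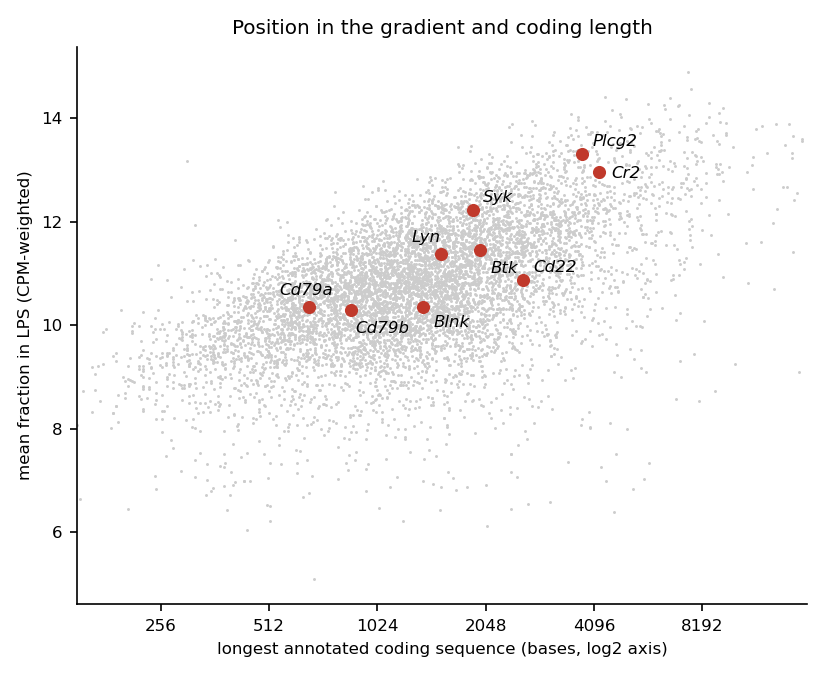
Mean fraction in LPS (y, weighted by CPM) against the longest annotated coding sequence in bases (x, log2 axis), with 7585 genes in grey and the 9 genes in red. Plcg2 and Cr2 lie at the upper right and Cd79a and Cd79b at the lower left.

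The wider pathway was described with 5 lists of 61 genes, of which 58 were tested. In LPS+ET against LPS, 14 fell and 2 rose (32 fell and 3 rose with the replicate block), where over all genes 4.81% fell and 7.88% rose (12.8% and 13.9% with the block), with a median log2 fold change of -0.64 against 0.03 over all genes. In LPS+ET+KU against LPS, 15 fell and 1 rose (32 fell and 4 rose with the block), where over all genes 4.42% fell and 6.25% rose (13.3% and 14.9% with the block), with a median of -0.67 against 0.09. Against LPS+ET, 1 fell in LPS+ET+KU and none rose by edgeR (6 fell and 3 rose with the block). Over all genes, 0.235% fell and 0.22% rose in this comparison (3.59% and 2.77% with the block). The counts of single lists, all small, are to be read against these shares over all genes.

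Of 5 co-receptor and other activating receptor genes, 1 rose and 1 fell in both comparisons with LPS. Cd81, a tetraspanin of the cell surface, rose from 187, 230, 146 and 162 CPM in LPS to 658, 428, 565 and 532 in LPS+ET (log2 fold change 1.59) and stood at 389, 426, 306 and 243 in LPS+ET+KU. Cd180, a Toll-like receptor homologue of B cells, fell from 85.6, 78.9, 84.6 and 79.9 CPM to 29.3, 24.7, 25.8 and 26.4 (-1.63). It was lower still in LPS+ET+KU, at 12.8, 16.0, 11.2 and 12.2 CPM, and was the single pathway gene that differed from LPS+ET (-1.02, adjusted p = 0.0041).

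Of 8 tested inhibitory receptor and phosphatase genes, 3 fell after etoposide, among them Ptpn6 (SHP-1, which docks on CD22) at -1.45 and Inpp5d (SHIP1, which removes a phosphate from the PI3K product) at -1.14, and 2 in LPS+ET+KU. Of 10 genes for Src-family and Tec kinases and their regulators, 5 fell after etoposide and 3 in LPS+ET+KU. They included Ptprc (CD45, the phosphatase that keeps Src kinases ready, -1.16) and Pag1 (the membrane anchor of the inhibitory kinase CSK, -1.39).

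Of 18 tested genes for PI3K, Vav and adaptors, 3 fell after etoposide and 5 in LPS+ET+KU. The largest falls were of Vav2, an exchange factor (61.3 ± 11.4 to 14.7 ± 5.64 CPM, -2.06), and of Bank1, a B cell scaffold protein (787 ± 54.9 to 190 ± 97.2 CPM, -2.05). Of 17 genes of the calcium, PKC, Ras and NF-kB or NFAT branch, 2 fell and 1 rose after etoposide (over all genes 4.81% fell and 7.88% rose), and 4 fell in LPS+ET+KU. Ppp3ca, the calcineurin catalytic subunit, changed by -1.34 and Rasgrp3, a Ras activator, by -1.09, while Nfatc2 rose from 19.7 ± 2.66 to 38.4 ± 4.29 CPM (0.96) and stood at 23.7 ± 4.85 in LPS+ET+KU.

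The genes most like each member were sought by Pearson's r over the 39 treatment-by-fraction means of log2(CPM + 1), among 8000 genes. The points share libraries and neighbouring fractions, so r is a description only. Cd22 was most like Bank1 (r = 0.89), with Plk1 also among its nearest, and Blnk most like Cd38 (0.86), Srm and Grk6. Lyn was most like Mef2c (0.87), Ikzf1 and Hdac9, Syk most like Hmgcs1 (0.95), Far1 and Atp2a2, and Btk most like Racgap1 (0.91), Hnrnpd and Mef2d. Plcg2 was most like Jak1 (0.97), Ncapg and Atp2a2, and Cr2 most like Flna (0.92), Mtmr4 and Urb2. The signalling chains had different neighbours, Eif1ad (0.93), Ly6e and Ostf1 for Cd79a and Gnas (0.81), H2-Aa and Sec11a for Cd79b, and r between Cd79a and Cd79b was 0.62.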

How the data were processed

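Polysome fractions were profiled by 3′ end sequencing, which tags each mRNA at its poly(A) site. According to the methods, the authors reverse transcribed an equal RNA concentration per fraction with barcoded primers, removed PCR duplicates by random barcode bases and aligned tags to GRCm38 (TopHat2 2.0.12, HTSeq and DESeq2 1.6.3 are named in the submitters' processing notes). The deposited values are counts per gene and library without normalization, so a library total does not measure how much mRNA a fraction held.

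Column names gave the treatment, fraction and pool. Of the columns, 79 matched 1 labelled sample and 78 a treatment and fraction only, so gradients are named by treatment and pool. The study describes biological replicates, and the source of each pool was not given in the labels. Deviations from treatment means correlated at 0.35 to 0.89 in all 12 same-pool pairs (8000 genes), so pools were taken to pair the gradients and served as the replicate block. Pairs from different pools correlated at -0.67 to 0.40. The highest of these, pool LUL15 with LUL16 in LPS+ET against LPS, exceeded the same-pool 0.35 of LUL16, so pairing is less clear there. Whether same-pool likeness came from shared cells or shared library preparation was not tested. Gradients of a treatment differed beyond sampling noise (chi-square per degree of freedom of 37.6 or more).

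Counts were summed over fractions 4 to 16, or by class, and tested with edgeR 4.0.16 (TMM, default low-count filter, quasi-likelihood F-test, treatment as the only term, all 12 gradients). Single fractions were fitted likewise. The heavy polysome share used fraction libraries scaled to equal totals, 0.5 added ahead of the logit, a minimum of 100 mean counts, and limma 3.58.1. Calls needed a Benjamini-Hochberg adjusted p under 0.01, two-sided, over all genes. Alternatives were the replicate block, DESeq2 1.42.0, no filter, equal weight per fraction, the compared gradients alone, other count minimums, each gradient left out and, chosen after seeing the data, pool LUL16 left out. The fits were tested on simulated data (R 4.3.3, Python 3.11.15).

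The 9 genes and all lists were chosen with earlier results of these data known. Named were the 9 genes, of each pathway list up to 2 rises and 2 falls of largest size after etoposide and each call of LPS+ET+KU against LPS+ET, the 3 genes most like each member, and cell markers as lists with the most abundant one. Cd3e, Cd3d and Cd3g were named outside this rule after their values were seen. Some genes that the rule names are not reported here.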

Additional observations from a re-analysis of the deposited data

Results flagged for a closer look

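In 8 of 81 groups of 4 gradients (level, heavy polysome share and mean fraction of the 9 genes in 3 treatments), 1 gradient lay far from the other 3 by Dixon's ratio (above its 95% critical value), where chance alone flags about 1 group in 20. Pool LUL16 was the distant gradient in 4 of them. In LPS its Cd79a level of 101.4 CPM was the highest. In LPS+ET+KU its levels of Cd22 (216.1 CPM) and Plcg2 (303.6 CPM) and its heavy polysome share of Cd22 (67.03%) were the highest. The other 4 were mean fractions. In LPS+ET+KU they were Cd79b in pool LUL18 (10.81) and Syk (12.51) and Plcg2 (13.16) in pool LUL17, and in LPS the value of Blnk in pool LUL18 (10.7). All 4 lay deeper in the gradient than the rest of their group. Leaving pool LUL16 out of all treatments left the Cd22 calls on ribosome-associated mRNA in place (log2 fold change -2.68 after etoposide and -2.27 with the inhibitor too, both against LPS) and brought Plcg2 past the threshold in LPS+ET+KU (adjusted p = 0.00093). The causes were not tested.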

How the results depend on the processing

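The gradients were taken as paired by pool. With pool as the replicate block more of the 9 genes fell in light polysomes (7 after etoposide and 6 with the inhibitor too, against LPS) and in heavy polysomes (6 and 7). Cd79b alone rose in monosomes of LPS+ET+KU against LPS+ET (1 gene, where 2.5% of all genes rose). DESeq2 called 5 and 5 in heavy polysomes against LPS, and leaving out pool LUL16, chosen after seeing the data, gave 5 and 6. With equal weight per fraction 1 gene fell in LPS+ET+KU against LPS. For DESeq2, equal weight and left-out gradients or pools no share over all genes is given, so their counts show only how calls moved. The interaction alone called 0 profiles in each comparison, and 1, 1 and 0 with a term per gradient. Without 1 gradient, in LPS+ET+KU against LPS 2 to 6 genes fell on ribosomes, 1 to 4 in monosomes and 1 to 4 in heavy polysomes, in LPS+ET against LPS 1 to 5 in heavy polysomes, and 0 to 2 profiles differed between LPS+ET+KU and LPS+ET.

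Signs turned only in values that had not passed. For ribosome-associated mRNA these were, in LPS+ET+KU against LPS, Cd79b with equal weight per fraction (0.064), and, against LPS+ET, Syk without the filter (0.021) and with equal weight (0.38), Btk with equal weight (0.25) and Cr2 without pool LUL16 (-0.027). Plcg2 in monosomes of LPS+ET turned without the filter (-0.015) and without pool LUL16 (-0.20). For the share in LPS+ET+KU against LPS, counts as deposited turned Cd79a (-0.056), Cd22 (-0.45), Syk (-0.41) and Cr2 (-0.11), and leaving out pool LUL16 turned Cd22 (-0.041). Without 1 gradient, LPS+ET+KU against LPS+ET ran from -0.0085 to 0.27 for Cd79a, -0.12 to 0.83 for Cd22, -0.098 to 0.083 for Syk, -0.36 to 0.011 for Lyn and -0.12 to 0.23 for Cr2, and Plcg2 in monosomes of LPS+ET against LPS from -0.35 to 0.25. The share differences ran from -0.072 to 0.023 for Cd79b after etoposide, and with the inhibitor too from -0.11 to 0.0018 for Cd79b, -0.015 to 0.15 for Cd22 and -0.0069 to 0.11 for Syk. The causes were not tested. With 4 gradients per treatment and as few as 222 counts (Cr2) in 1 of them, small changes could not be detected.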
